A study of Mus musculus with 12 samples.

Results

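Cadherins and protocadherins were followed through 3 Cuffdiff tables of mouse frontal cortex. Members were the tested rows whose gene symbols were a numbered cadherin (Cdh followed by digits) or began with Pcdh; rows in which several symbols had been merged counted once. This gave 41 of 18417 tested gene models where knockdown was set against wild type, 44 of 18430 for rescue against knockdown and 40 of 18429 for rescue against wild type, and 88 member symbols in each table. The tissue came from 12 male F1 hybrids of C57Bl/6 and 129/SvlmJ mice, 14 weeks old, in 3 groups of 4: wild type (WT in the labels), Grin1 knockdown (GluN1) and Grin1 knockdown with Cre rescue (GluN1Cre). Grin1 encodes the obligatory subunit of NMDA-type glutamate receptors. All 12 animals, wild type included, were given tamoxifen (6 mg as an oral dose, then close to 14 mg through their food) beginning at 10 weeks, so no group was free of it. By the group names only the rescue group carried Cre; the labels name neither its driver nor the construction of the Grin1 alleles, so that Cre and the recovery of Grin1 cannot be told apart. The question for this gene family is which of its members differ with reduced Grin1, and which still do after the adult rescue.

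Cadherins are membrane proteins that hold cells together through calcium-binding extracellular repeats. Classical cadherins bind partners on the neighbouring cell and are anchored through catenins to the actin skeleton, and in cortex they help to build and stabilise synapses. Protocadherins have other cytoplasmic tails: the clustered alpha, beta and gamma proteins give single neurons combinations of surface labels, and the non-clustered ones mark regions and cell classes. Each table gives 1 FPKM value per group (fragments scaled to transcript length and library size), estimated by the authors over the 4 libraries, so a spread between animals could not be given and read depth is unknown. Because FPKM is scaled to length, levels of different genes may be set side by side. A model was called changed where the authors' p was under 0.05 and their q under 0.10, the threshold of the series' design text. In bulk tissue, fewer cells of a type and less RNA per cell cannot be told apart.

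Grin1 itself lay at 41.0% of wild type in the knockdown (138 to 56.7 FPKM), at 132% of the knockdown in the rescue group (65.7 to 86.7 FPKM) and at 56.5% of wild type in the rescue group (138 to 78.0 FPKM). Its levels differed between tables, by 1.16 times for the knockdown and 1.11 times for the rescue group. Excitatory cortical marker genes were present, 8 of 8 tested; in the knockdown 1 of them, Fezf2, fell, 7 of 8 folds were negative, and the summed level was 747 FPKM in wild type and 708 FPKM in the knockdown. Of the 12 olfactory bulb marker models tested, 10 rose and 0 fell in the knockdown (summed level 66.7 to 148 FPKM) and 9 fell and 0 rose from knockdown to rescue (147 to 93.9 FPKM); in rescue against wild type 8 of 11 rose (49.4 to 77.4 FPKM). Of the bulb markers Lhx1 was not tested by the authors. In the knockdown, striatal medium spiny neuron markers fell in 6 of 12 models (217 to 185 FPKM). There 6 of 8 interneuron markers (713 to 961 FPKM) and 5 of 8 meningeal fibroblast markers (721 to 891 FPKM) rose. So did 2 of 6 astrocyte markers (289 to 334 FPKM) and 1 of 4 blood marker models (37.7 to 45.9 FPKM). That blood model, of Hba-a1 and Hba-a2, had q = 0.0949 in the authors' deposited table. A second model of these genes had a log2 fold of 0.05 and was not called. No tested model held the blood marker Hbb-bs. In rescue against wild type 8 of 11 striatal models fell (221 to 165 FPKM) and 3 of 8 interneuron markers rose (708 to 843 FPKM). Likewise 2 of 4 blood marker models (37.7 to 74.0 FPKM) and 1 of 7 astrocyte models (294 to 297 FPKM) rose. Between knockdown and rescue 2 of 4 blood marker models rose (46.0 to 74.7 FPKM), and 2 of 7 astrocyte, 1 of 8 interneuron and 1 of 11 striatal models fell. These lists were chosen with their changes in these data known, and their part in the results below was not tested.

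The 4 called members carry the results, and the upstream sequence is shown for the 2 of them whose RefSeq start lies within 100 bases of the outer end of the authors' model, Pcdh20, which rose, and Pcdh19, which fell. Capitals mark matches, on either strand, to the letters CCAAT or to the GC box, whose letters are GGGCGG. The Pcdh20 window is chr14:88471397-88471646 and the Pcdh19 window chrX:133689040-133689243, both from the minus strand of GRCm38.p6 (RefSeq), written 5′ to 3′ and ending just before the model begins.
Pcdh20: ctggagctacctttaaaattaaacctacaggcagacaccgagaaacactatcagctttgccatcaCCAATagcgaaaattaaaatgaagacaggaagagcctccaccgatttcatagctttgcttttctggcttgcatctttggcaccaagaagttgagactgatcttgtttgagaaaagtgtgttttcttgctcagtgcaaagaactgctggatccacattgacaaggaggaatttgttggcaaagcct
Pcdh19: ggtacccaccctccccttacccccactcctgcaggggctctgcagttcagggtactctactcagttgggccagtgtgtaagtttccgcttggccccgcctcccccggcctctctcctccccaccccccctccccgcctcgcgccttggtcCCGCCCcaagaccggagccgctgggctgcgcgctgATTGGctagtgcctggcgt
The windows differ in base composition, with 42.4% G and C for Pcdh20 and 69.1% for Pcdh19. Each holds 1 CCAAT box, and the Pcdh19 window holds 1 GC box. Neither holds TGACGTCA (the cyclic AMP response element) or its shorter form TGACG. An E-box (CACGTG) and a TATA box (TATAAA) are likewise in neither window. Of 32851 RefSeq upstream windows of 250 bases, 33.8% hold a CCAAT box, 32.7% a GC box, 17.8% the shorter response element, 1.55% the full one (which also counts as the shorter), 6.02% an E-box and 12.4% a TATA box. Among the 25 of these windows that belong to member genes (22 symbols), 60% hold a CCAAT box and 36% a GC box. The shorter response element is in 16% of them, the full one in 0%, an E-box in 4% and a TATA box in 8%. The Pcdh19 window, cut where the authors' model begins, has 204 bases. A match is a run of letters and says nothing of binding. The RefSeq starts of Cdh20 and Pcdh15 lie 307 and 338007 bases inside the authors' models, and no sequence is shown for them.

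In the knockdown 4 of 41 member models were called against 2.52% of all tested models. Pcdh20, Pcdh15 and Cdh20 rose (3 members, against 1.66% of all models called higher) and Pcdh19 fell (1 member, against 0.858% called lower). No member was called by Cuffdiff between rescue and knockdown, where 0.689% of all models were; 3 of 44 (Cdh19, Pcdh19 and Cdh8) had an unadjusted p under 0.05. In the rescue group 2 of 40 members, Pcdh15 and Pcdh20, were higher than in wild type, against 0.841% of all models called and 0.364% called higher. Over the members the median log2 fold was 0.06, 0.03 and 0.07 in these comparisons, against -0.00, -0.01 and -0.01 over all tested models, and 27 of 41, 30 of 44 and 28 of 40 folds were positive, against 48.8%, 47.2% and 46.6% of all tested models. The clustered protocadherin rows, all at 1 locus, gave 10 of 11, 11 of 13 and 9 of 9 of these. Members outside the cluster had 17 of 30, 19 of 31 and 19 of 31 positive folds and medians of 0.01, 0.03 and 0.05. The comparisons share groups, each group entering 2 tables, so their values are set side by side below and are not independent of each other.

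**Figure D1:**
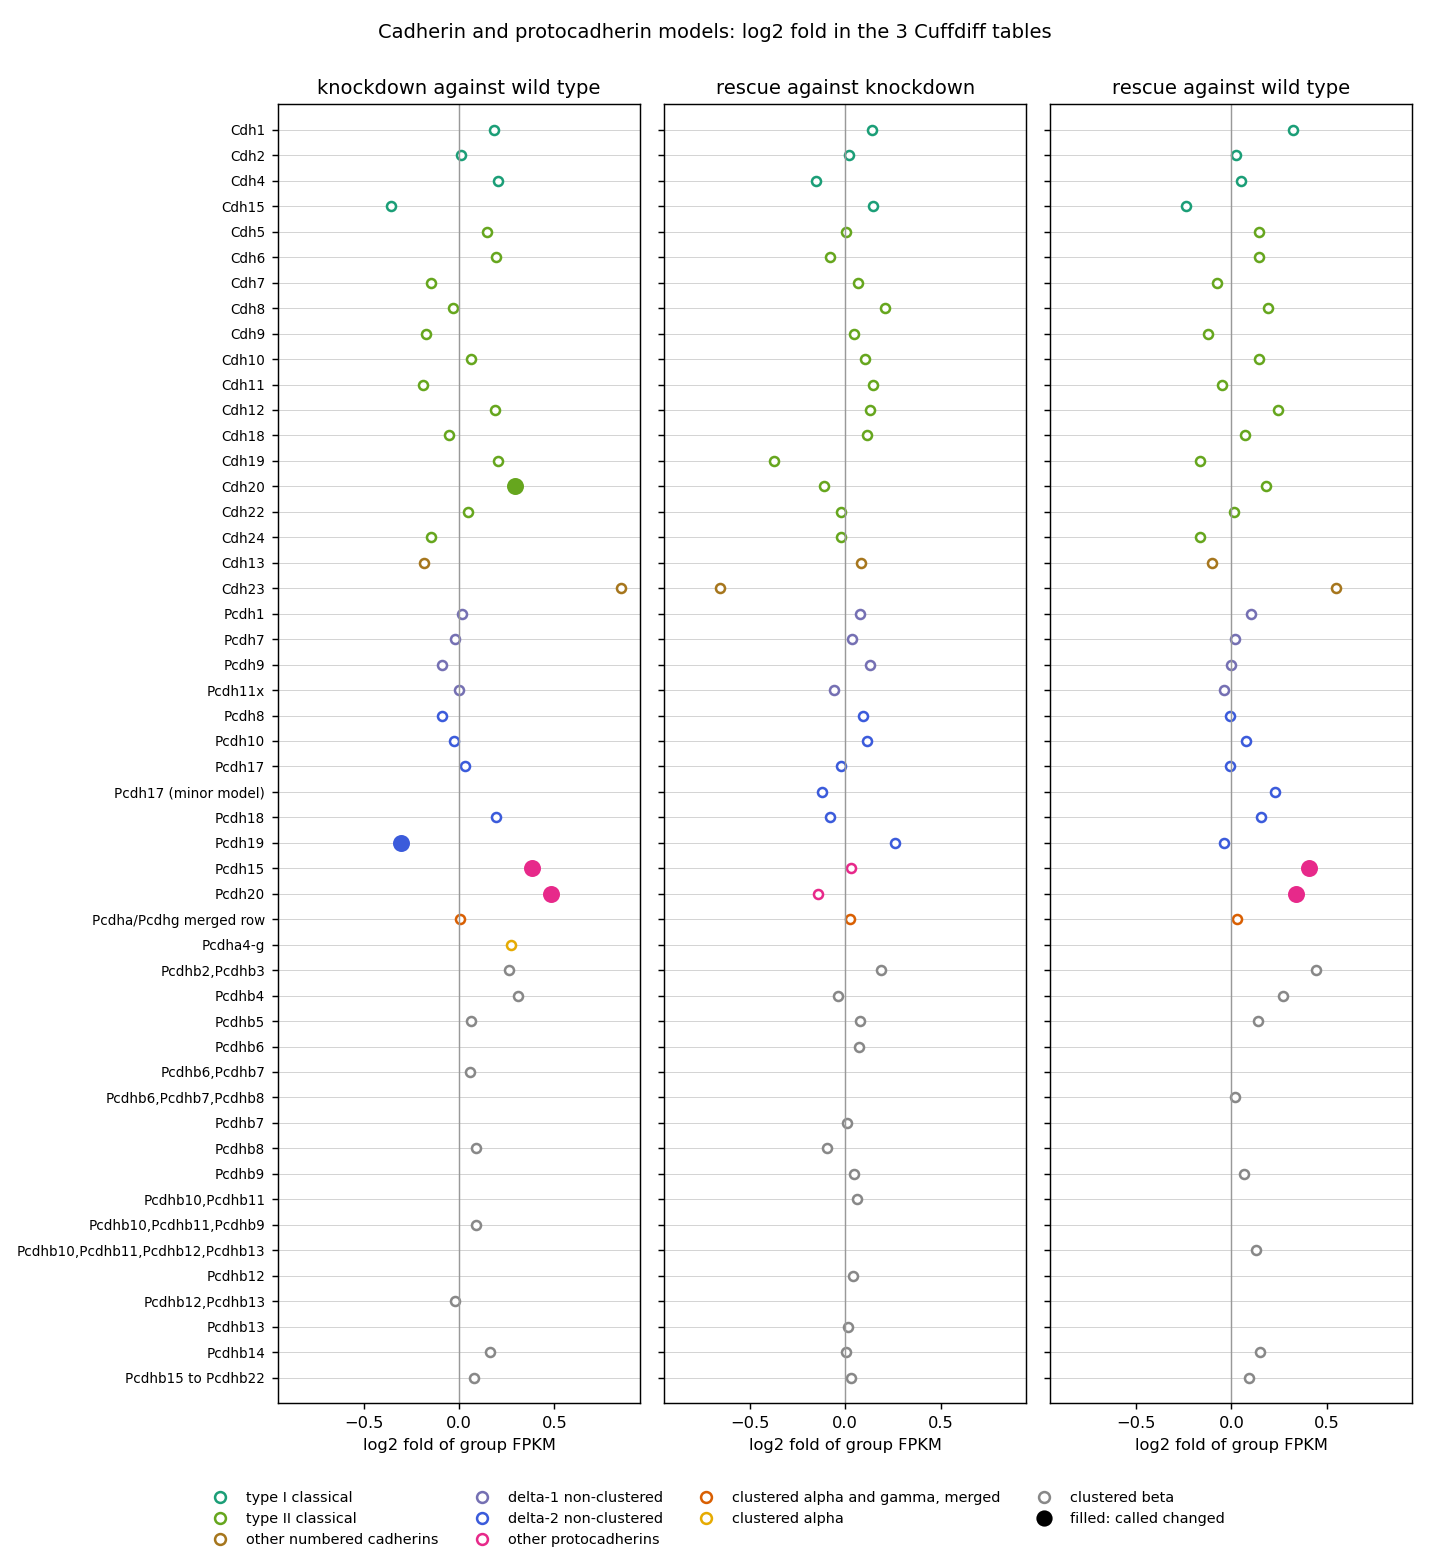
Log2 fold of group FPKM (x axis) for every tested member model (y axis, coloured by subfamily) in the 3 tables; filled points were called changed, and a missing point means that the row was not assembled or tested in that table. Called points are Pcdh20, Pcdh15, Cdh20 and Pcdh19 on the left, none in the middle, and Pcdh20 and Pcdh15 on the right, while the open Cdh23 point at 0.85 on the left belongs to a gene under 1 FPKM.

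Pcdh20, a non-clustered protocadherin, had the largest change among the called members. Its level went from 5.04 FPKM in wild type to 7.04 FPKM in the knockdown, a log2 fold of 0.48 (p = 5e-05, q = 0.00456 in the authors' deposited table). No tested model had a Cuffdiff p under 5e-05 in any comparison, so genes that share this p and q cannot be ranked by them. From knockdown to rescue Pcdh20 went from 7.04 to 6.37 FPKM, a log2 fold of -0.14 that was not called (p = 0.129 in the authors' deposited table). The rescue group remained above wild type, at 6.28 against 4.96 FPKM (log2 fold 0.34, with a q of 0.0453 in the authors' deposited table). The rescue value thus lay between the other groups, closer to the knockdown, and its step down from the knockdown did not pass. The gene, ENSMUSG00000050505, is placed by GENCODE M21 (GRCm38) on chromosome 14, minus strand, positions 88464743 to 88471396; it is protein-coding and overlapped by 0 other genes.

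Pcdh15 encodes a protocadherin known from the tip links of inner-ear hair cells and, in brain, as a marker of oligodendrocyte precursors. It rose from 2.60 to 3.39 FPKM in the knockdown (log2 fold 0.38, with a q of 0.00456 in the authors' deposited table). Between knockdown and rescue it stood at 3.37 and 3.44 FPKM, a log2 fold of 0.03 (p = 0.745 in the authors' deposited table). Rescue against wild type gave 3.34 against 2.52 FPKM (log2 fold 0.41, with a q of 0.0098 in the authors' deposited table). Knockdown and rescue were thus both high, and the table that compares them directly gave a difference that did not pass. None of the 5 models of the precursor markers Pdgfra, Cspg4, Gpr17 and Olig2 was called in any table; their summed level was 32.2 and 35.4 FPKM in wild type and knockdown, 35.7 and 33.8 FPKM in knockdown and rescue, and 32.1 and 33.5 FPKM in wild type and rescue. Of these 5 models, 5, 1 and 3 had positive folds in the same order, with median log2 folds of 0.09, -0.08 and 0.00. Pdgfra alone had log2 folds of 0.07, -0.07 and 0.00. The part of these cells in the Pcdh15 levels was not tested. GENCODE M21 places Pcdh15 (ENSMUSG00000052613) on the plus strand of chromosome 10 from 73099342 to 74649737, where 7 other genes overlap it, 4 of them on the opposite strand; whether the authors' counting used strand is not given in the sources used here.

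Cdh20, a type II classical cadherin, rose from 5.16 to 6.33 FPKM in the knockdown (log2 fold 0.29, with a q of 0.0949 in the authors' deposited table), close to the limit of 0.10, and is not called at a q under 0.05. It was at 6.30 and 5.84 FPKM in knockdown and rescue (log2 fold -0.11, p = 0.241 in the authors' deposited table) and at 5.13 and 5.83 FPKM in wild type and rescue (log2 fold 0.18, p = 0.0678 in the authors' deposited table). The rescue level was between those of the other groups, and neither of its steps passed. Cdh20 (ENSMUSG00000050840) spans 104768529 to 104995481 on the plus strand of chromosome 1, overlapped by 4 other annotated genes, 2 of them on the opposite strand.

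Pcdh19, an X-linked delta-2 protocadherin whose human counterpart is mutated in an epilepsy that affects mostly girls, was the member that fell. It went from 9.11 to 7.38 FPKM in the knockdown (log2 fold -0.31, with a q of 0.022 in the authors' deposited table). In rescue against knockdown it lay at 8.89 against 7.40 FPKM, a log2 fold of 0.26 with p = 0.0019 and q = 0.217 in the authors' deposited table, which is not a call. Rescue and wild type stood at 8.74 and 8.99 FPKM (log2 fold -0.04, p = 0.647 in the authors' deposited table). The knockdown was thus the low group in both tables that hold it, and its return in the rescue group did not pass over all genes. Pcdh19 (ENSMUSG00000051323) lies on the minus strand of the X chromosome from 133582860 to 133688987 and overlaps 1 other gene, Gm26851, on the opposite strand.

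**Figure D2:**
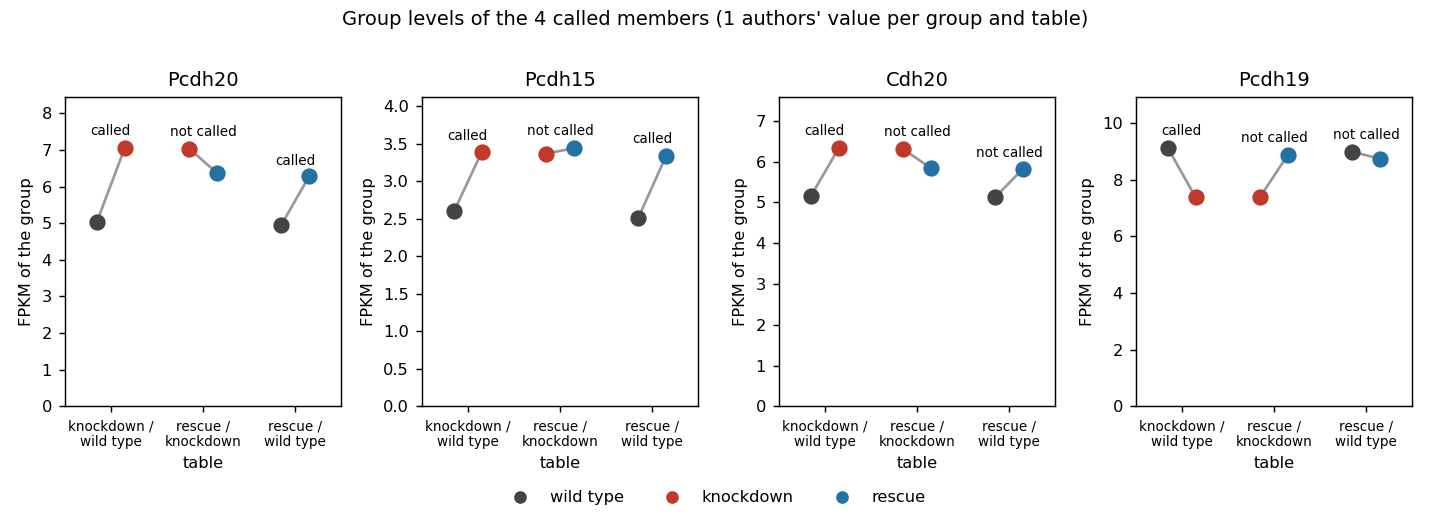
FPKM per group (y axis, from 0) for the 4 called members, with 1 authors' value per group in each of the 3 tables (x axis) and a line joining the groups compared; no error bar can be drawn because the tables hold no values per animal. Pcdh20 and Pcdh15 sit higher in knockdown and rescue than in wild type, Cdh20 rises to 6.33 FPKM in the knockdown, and Pcdh19 drops to 7.38 FPKM there.

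Type I classical cadherins gave 4 tested models and 0 calls by Cuffdiff in each table (1, 0 and 0 at an unadjusted p under 0.05). Over all tested models 2.52%, 0.689% and 0.841% were called, so counts of 0 or 1 in sets this small do not set subfamilies apart. Cdh2 (N-cadherin, the main classical cadherin of cortical synapses) was at 20.6 and 20.7 FPKM in wild type and knockdown, 21.1 and 21.4 FPKM in knockdown and rescue, and 20.7 and 21.1 FPKM in wild type and rescue. Its log2 folds were 0.01, 0.02 and 0.03, the largest of them with p = 0.739 in the authors' deposited table. Cdh4 (R-cadherin) stood at 5.70 and 6.57 FPKM in wild type and knockdown, a log2 fold of 0.21 with p = 0.0246 and q = 0.428 in the authors' deposited table; the later steps were -0.15 and 0.05. Cdh1 (E-cadherin, typical of epithelia) and Cdh15 (M-cadherin, typical of muscle) stayed at or under 0.61 FPKM in every group.

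Type II cadherins, which sort neurons and shape particular synapses, gave 13 tested models in each table. Cdh20 in the knockdown was the 1 call, where 2.52% of all tested models were called. Cdh10 (15.6 to 19.5 FPKM over groups and tables), Cdh22 (16.8 to 17.7 FPKM) and Cdh11 (12.7 to 14.5 FPKM) were the most abundant. Cdh11 was at 14.5 and 12.7 FPKM in wild type and knockdown (log2 fold -0.19, p = 0.0228, q = 0.413 in the authors' deposited table) and at 12.9 and 14.3 FPKM in knockdown and rescue (log2 fold 0.15). Cdh9, Cdh7 and Cdh24 had negative folds of -0.18, -0.15 and -0.15 in the knockdown, and Cdh19, Cdh6 and Cdh12 positive folds of 0.20, 0.19 and 0.19, none of them called. Cdh19, a cadherin known from glia of the Schwann cell lineage, gave the smallest member p between rescue and knockdown: 3.60 against 2.79 FPKM, log2 fold -0.37, p = 0.00105 and q = 0.142 in the authors' deposited table. Cdh8, an adhesion molecule of cortical and thalamic circuits, was at 10.0 and 11.5 FPKM in knockdown and rescue (log2 fold 0.21, p = 0.0243, q = 0.89 in the authors' deposited table). It was at 9.97 and 11.4 FPKM in wild type and rescue but at 11.6 and 11.3 FPKM in wild type and knockdown. Its wild-type value thus differs between tables by 1.16 times and its knockdown value by 1.13 times, while the rescue value differs by 1.01 times. Cdh5 (VE-cadherin of endothelial junctions) had log2 folds of 0.15, 0.00 and 0.14. The 6 other endothelial markers had 0 calls and medians of 0.14, 0.01 and 0.14 in the same order. Of these 6 markers 6, 3 and 6 had positive folds, and 2, 0 and 1 had an unadjusted p under 0.05.

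Of the remaining cadherins, Cdh13 (T-cadherin, held in the membrane by a lipid anchor) was the most abundant single cadherin gene, at 27.8 and 24.5 FPKM in wild type and knockdown (log2 fold -0.18, p = 0.029, q = 0.476 in the authors' deposited table). It lay at 24.7 and 26.2 FPKM in knockdown and rescue and at 27.6 and 25.7 FPKM in wild type and rescue. Cdh23, the tip-link partner of Pcdh15, had the largest fold of any member but only 0.241 and 0.433 FPKM in wild type and knockdown (log2 fold 0.85, p = 0.0638 in the authors' deposited table). Its folds of -0.66 and 0.55 in the other tables were not called either. Rows for Cdh3, Cdh16, Cdh17, Cdh26, Pcdh12 and Pcdhb1, and a second Cdh18 model in the tables that hold the knockdown, were present and not tested by the authors, all at or under 0.236 FPKM.

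The delta-1 protocadherins Pcdh1, Pcdh7, Pcdh9 and Pcdh11x gave 0 calls by Cuffdiff in any table, 0 at an unadjusted p under 0.05, and no log2 fold over 0.13 in size. Of all tested models 2.52%, 0.689% and 0.841% were called. Pcdh1 was at 40.4 and 40.7 FPKM in wild type and knockdown and Pcdh7 at 31.2 and 30.7 FPKM. In the delta-2 branch Pcdh10 was the most abundant non-clustered protocadherin, at 56.1 and 55.1 FPKM in wild type and knockdown, 55.3 and 59.9 FPKM in knockdown and rescue, and 55.9 and 59.0 FPKM in wild type and rescue. Its log2 folds were -0.03, 0.11 and 0.08. Pcdh8 (arcadlin), which is induced by neuronal activity and promotes internalisation of N-cadherin at synapses, stood at 11.5 and 10.8 FPKM in wild type and knockdown (log2 fold -0.09, p = 0.326 in the authors' deposited table), with later folds of 0.09 and -0.01. Pcdh17, which acts at synapses of corticostriatal circuits, had folds of 0.03, -0.02 and -0.01 in its main model; a minor model assembled in the tables that hold the rescue group lay at 0.703 FPKM or less. Pcdh18 had folds of 0.19, -0.08 and 0.15, none called.

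The clustered protocadherins were reported as 11, 13 and 9 tested rows, all with a single shared locus on chromosome 18. None was called, against 2.52%, 0.689% and 0.841% of all tested models. The row that merges 37 alpha and gamma symbols was the most abundant of all members, at 196 and 197 FPKM in wild type and knockdown, 197 and 201 FPKM in knockdown and rescue, and 195 and 199 FPKM in wild type and rescue. Its log2 folds were 0.01, 0.03 and 0.03. Since this row sums alpha and gamma isoforms together, neither a shift of promoter choice among them nor opposite changes of alpha and gamma could be seen here. A separate row, Pcdha4-g, was tested in the knockdown comparison only, at 0.398 and 0.481 FPKM in wild type and knockdown (log2 fold 0.27). Beta rows ranged from 0.648 to 16.7 FPKM in their mean over both groups, the highest being the row that merges Pcdhb15 to Pcdhb22. Pcdhb10,Pcdhb11,Pcdhb9 was at 6.62 and 7.03 FPKM in wild type and knockdown. Pcdhb10,Pcdhb11,Pcdhb12,Pcdhb13 was at 6.38 and 6.97 FPKM in wild type and rescue. The Pcdhb8 log2 fold between knockdown and rescue was -0.097. Beta rows had positive folds in 8 of 9, 10 of 12 and 8 of 8 cases, with medians of 0.09, 0.03 and 0.13. Alone among them, the row Pcdhb2,Pcdhb3 had a fold over 0.4, at 2.14 and 2.92 FPKM in wild type and rescue.

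The authors' p-values for these rows were high whatever the fold. In rescue against wild type Pcdhb2,Pcdhb3 had a log2 fold of 0.44 and p = 0.596 in the authors' deposited table, while Pcdh15, at a similar level of 2.52 and 3.34 FPKM, had a fold of 0.41 and p = 5e-05. Because FPKM is scaled to length, similar levels need not mean similar read numbers, which are unknown here. The clustered rows had p from 0.752 to 0.99 in the knockdown comparison, 0.767 to 0.999 between rescue and knockdown and 0.596 to 0.98 between rescue and wild type in the authors' deposited tables. Thus 11 of 11, 13 of 13 and 9 of 9 were over 0.5. Over all tested models 56.6%, 64.2% and 63.3% were over 0.5, and among members outside the cluster 33.3%, 35.5% and 35.5%. The clustered rows carry the same locus coordinates, and how reads were divided among them is not analysed here, so they are reported as uncertain; a high p here does not show that the groups did not differ.

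**Figure D3:**
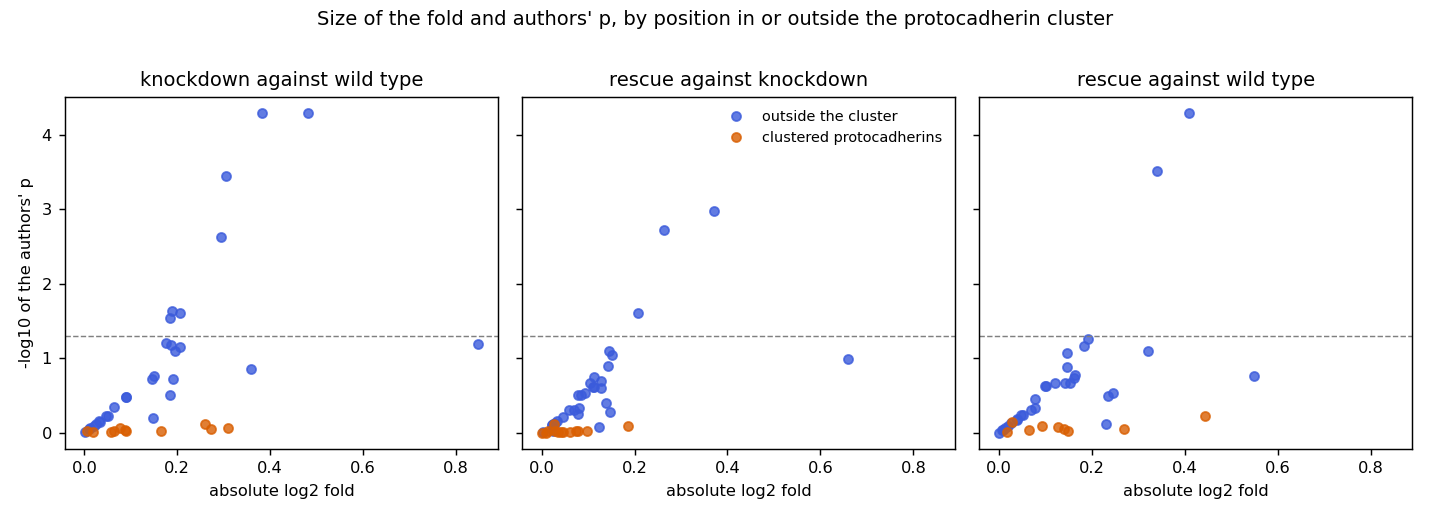
Absolute log2 fold (x axis) against -log10 of the authors' p (y axis) for member models in the 3 tables, with clustered protocadherin rows in orange, other members in blue and a dashed line at p of 0.05. Most blue points climb with the size of the fold, with exceptions such as Cdh23 and, in rescue against wild type, Cdh12 at a fold of 0.25 and p = 0.292 in the authors' deposited table, while orange points stay along the bottom, including Pcdhb2,Pcdhb3 at a fold of 0.44.

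Levels of a group could be compared between the tables that share it, for rows with the same symbols and at least 1 FPKM in both. For wild type 7 of 30 member rows differed by more than 1.1 times, for the knockdown 3 of 31 and for the rescue group 6 of 31, against 8.10%, 7.89% and 8.18% of all such models. Cdh6 differed most, with wild type at 6.62 FPKM in the table with the knockdown and 4.76 FPKM in the table with the rescue group, 1.39 times. The wild-type value of Pcdh9 was 20.5 and 27.2 FPKM in these tables, that of Pcdh1 40.4 and 30.9 FPKM and that of Cdh12 3.08 and 3.82 FPKM. The 4 called members differed by at most 1.03 times in the 3 groups. Across the 34 member rows with a test in each table, knockdown and rescue steps summed to the fold of rescue against wild type with a median absolute error of 0.01 on the log2 scale and a largest error of 0.36, in Cdh23. For the genes named here as differing by over 1.1 times, and for Grin1, levels across tables are therefore not comparable, although the folds within a table are.

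**Figure D4:**
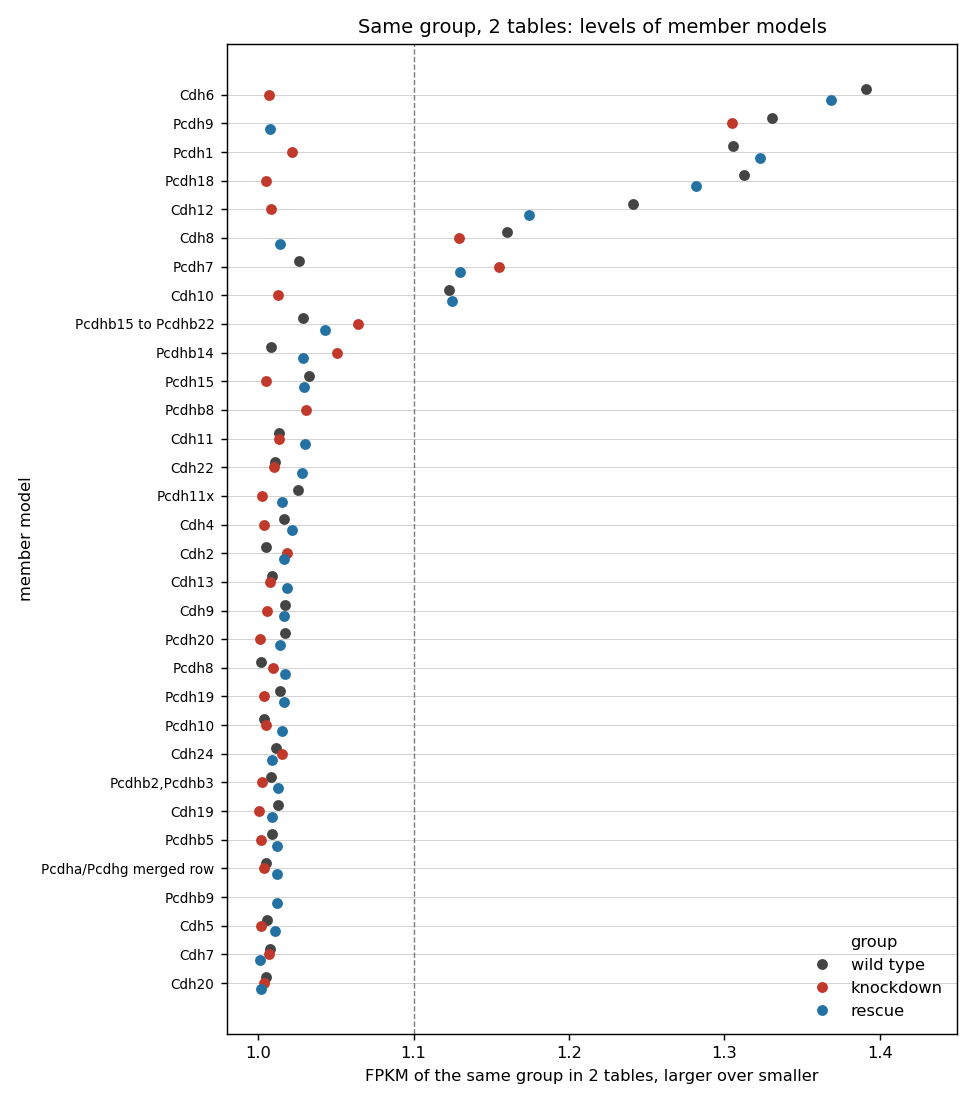
Ratio of the FPKM of the same group in the 2 tables that hold it, larger over smaller (x axis), per member row (y axis) and group (colour), with a dashed line at 1.1. Cdh6, Pcdh9, Pcdh1, Pcdh18, Cdh12, Cdh8, Pcdh7 and Cdh10 pass the line in at least 1 group, while Cdh20, Pcdh19, Pcdh20 and Pcdh15 lie near 1.

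Of 58 models of cadherin relatives and partner genes, 2 were called in each table, where 2.52%, 0.689% and 0.841% of all tested models were called. In the knockdown both calls, Fat1 and Cdhr1, belonged to the wider superfamily. None of the 11 catenin models was called in the knockdown by Cuffdiff, 0 of them at an unadjusted p under 0.05, with a median log2 fold of 0.00; Ctnnb1 (beta-catenin, which binds the tails of classical cadherins) was at 152 and 155 FPKM in wild type and knockdown, and Ctnna2 (the neuronal alpha-catenin that links to actin) at 40.0 and 36.4 FPKM. Between rescue and knockdown 1 of 11 catenin models fell, the desmosomal plakophilin Pkp2, to 1.48 FPKM (log2 fold -0.58, with a q of 0.0647 in the authors' deposited table). The 22, 22 and 21 models of cytoplasmic partners such as the kinases Ptk2b and Fyn had 0 calls by Cuffdiff (1, 0 and 0 at an unadjusted p under 0.05), and the 10 models of regulators of clustered protocadherin choice, Ctcf and cohesin subunits among them, had 0 calls in each table and 0 at an unadjusted p under 0.05. In the wider superfamily Fat1, a giant cadherin, rose from 5.87 to 7.85 FPKM in the knockdown (log2 fold 0.42, with a q of 0.00456 in the authors' deposited table) and was at 7.08 against 5.82 FPKM in rescue against wild type (log2 fold 0.28, with a q of 0.0673 in the authors' deposited table). Cdhr1, a cadherin-related gene of photoreceptors and of olfactory bulb mitral cells, rose from 11.2 to 23.1 FPKM in the knockdown, fell from 23.1 to 15.8 FPKM in the rescue group and stood at 15.6 against 11.2 FPKM in rescue against wild type. Its log2 folds were 1.04, -0.55 and 0.48, with q = 0.00456, 0.0118 and 0.0098 in the authors' deposited tables. Cdhr1 is also 1 of the bulb markers counted above. The calsyntenins, Celsr receptors, Dchs1, Fat3 and Fat4 were not called in any table. Dchs1 was at 2.05 and 2.45 FPKM in wild type and knockdown (log2 fold 0.26, p = 0.00825, q = 0.228 in the authors' deposited table). The wider superfamily held 3, 1 and 2 models at an unadjusted p under 0.05, the calls included.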

How the data were processed

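The series' design text says that reads went through the Tuxedo programs under Galaxy. Cuffdiff 2.2.1.3, Cufflinks 2.2.1.0, TopHat2 2.1.0 and FastQC 0.65 are listed, with GRCm38 (mm10) as the build, per the submitters' processing notes. Per the file headers, each of the 3 deposited tables gives 1 FPKM per group and gene model, with a p-value and a q-value from the authors' Cuffdiff test. Depth and values per animal are not analysed here. Labels do not say whether animals were littermates, and the p-values are those of the authors' test.

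Log2 folds were recomputed here from the deposited FPKM values with Python 3.11.15 and pandas 2.3.3, with no pseudocount or filter. Deposited start positions were taken as counted from 0, since adding 1 matched more GENCODE M21 gene starts (2114 of 13224 models, against 312). Calls used p under 0.05 and q under 0.10. Genes named were Grin1, all called members, the 6 highest and 6 lowest folds per table at a mean FPKM of at least 1, the 3 most abundant per subfamily and called partner genes; the other genes named were chosen after their values were seen. Members and lists were chosen with earlier results of these data known. Counting and q steps were tested on simulated data. Alternatives were a stricter q, no q, an FPKM filter, single-symbol rows, a pseudocount of 1 and centred folds.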

Additional observations from a re-analysis of the deposited data

How the results depend on the processing

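No paired analysis was possible because the tables hold 1 value per group, and for the same reason no animal could be left out. At a q under 0.05 Cdh20 (q = 0.0949 in the authors' deposited table) lost its call in the knockdown, leaving 3 members; the 2 calls between rescue and wild type remained, and partner genes went from 2 calls to 1 in rescue against knockdown and in rescue against wild type. With p under 0.05 and no q, 7 members passed in the knockdown (7.91% of all models), 3 between rescue and knockdown (4.19%, against 0 with q) and 2 between rescue and wild type (4.32%). An FPKM minimum of 1 with recomputed q, and single-symbol rows, left the member counts at 4, 0 and 2. The knockdown median moved from 0.06 to 0.041 with a pseudocount, 0.039 with an FPKM minimum and 0.046 with single-symbol rows. The median for rescue against knockdown moved from 0.032 to 0.036 with centred folds. That for rescue against wild type moved from 0.074 to 0.057 with a pseudocount and to 0.086 with centred folds. Centring turned 3 small negative folds of rescue against wild type positive: Pcdh17 (0.0044), Pcdh8 (0.0026) and Pcdh9 (0.012).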
